A study of Homo sapiens with 6 samples.

Results

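The transcription factor MYC, its partner MAX and 41 proteins that build ribosomes were followed in LNCaP, a human prostate cancer line that depends on androgen, after knockdown of PRMT5, the enzyme that places symmetric dimethylarginine on proteins. The 43 genes were taken by symbol from the deposited table of 12768 genes, and all 43 were found. The knockdown group was 3 LNCaP cultures with a hairpin RNA against PRMT5 switched on by doxycycline, stably transfected, that were given doxycycline for 4 days. Its comparison was 3 cultures of the same hairpin-carrying line kept for 4 days without doxycycline. The series text calls the libraries of a group biological replicates, and the study asked which genes differ after PRMT5 knockdown. No doxycycline-treated culture without the hairpin is listed, so the knockdown and the drug cannot be told apart, and whether the line was 1 clone is not given.

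Ribosome production starts in the nucleolus, where RNA polymerase I copies the ribosomal RNA genes into a long precursor. Small nucleolar ribonucleoproteins (snoRNPs) modify and fold that precursor, and large assemblies of helicases, nucleases and scaffold proteins cut it and turn it into the 40S and 60S subunits. MYC, bound to DNA as a dimer with MAX at E-box sequences, is known to raise transcription of many of these genes. In prostate cancer MYC is frequently gained, and nucleolar enlargement is a classical mark of the tumour cells. Fibrillarin and nucleolin, both among the genes described here, carry arginine-glycine-rich segments that arginine methyltransferases are known to modify.

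PRMT5 mRNA stood at 9.69, 10.8 and 10.6 CPM (read counts per gene as a share of the library's TMM-scaled total) in the knockdown cultures and at 88.7, 91.96 and 82.8 CPM without knockdown, 11.8% of the level without knockdown (edgeR adjusted p = 1.37e-07; exact two-sided permutation p = 0.1, the smallest that 3 against 3 libraries allow). Libraries held 7911853 to 15831938 counted reads, so 3 counts were worth 0.193 to 0.376 CPM. All 9 luminal prostate markers of LNCaP were present, summing to 4363 to 4480 CPM after knockdown and 4578 to 4765 CPM without it. Of 4 leukocyte markers only CD68 was in the table, at 1.38 to 1.67 CPM. Of 5 fibroblast markers 4 were, summing to 54.7 to 58.0 CPM after knockdown and 48.7 to 55.3 CPM without it, and of 3 endothelial markers only VWF, at 10.9 to 17.3 CPM after knockdown and 13.8 to 17.5 CPM without it. CPM are shares of the counted mRNA, so ribosomal RNA and the total RNA of a cell were not measured, and fewer cells of a kind and less RNA per cell cannot be told apart.

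Neither MYC nor another of the 43 mRNAs passed the main test, which had no replicate block, and the estimates were small. No gene of the 43 passed an adjusted p of 0.05 in edgeR's quasi-likelihood test, where 1.48% of all genes did (189 of 12768, with 0.337% higher and 1.14% lower). DESeq2 also called 0 of the 43, against 2.37% of all genes. At an unadjusted p under 0.05 edgeR took 4 of the 43, 2 higher and 2 lower, beside 14.0% of all genes (5.19% higher, 8.84% lower), and DESeq2 took 3 of the 43 and 10.5% of all genes. The authors' deposited table lists 0 of the 43 under a false discovery rate of 0.05, beside 3.70% of all genes, and its lowest rate among them is 0.17 for GNL3.

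The estimates were narrow as well as small. The log2 fold changes of knockdown over no knockdown ran from -0.26 (GNL3) to 0.25 (WDR75) with a median of 0.06, and the median of all genes was -0.0021. Of the 43 values 31 lay above 0 (72.1%), against 49.6% of all genes. By same-numbered pairs 29, 18 and 35 of the 43 lay above 0, with medians of 0.06, -0.05 and 0.13, so the second pair had the opposite sign. The 95% interval of the change lay within 2-fold either way for all 43 genes (93.9% of all genes) and within 1.5-fold for 41 of them (75.7% of all genes). BYSL and PPAN were the 2 genes whose intervals reached beyond 1.5-fold. These intervals are per gene and are not adjusted for the number of genes. Summed over the 43 genes, mRNA made up 3370 ± 92.1 CPM after knockdown and 3320 ± 80.6 CPM without it (SD, n = 3 each), a difference smaller than either SD.

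**Figure D1:**
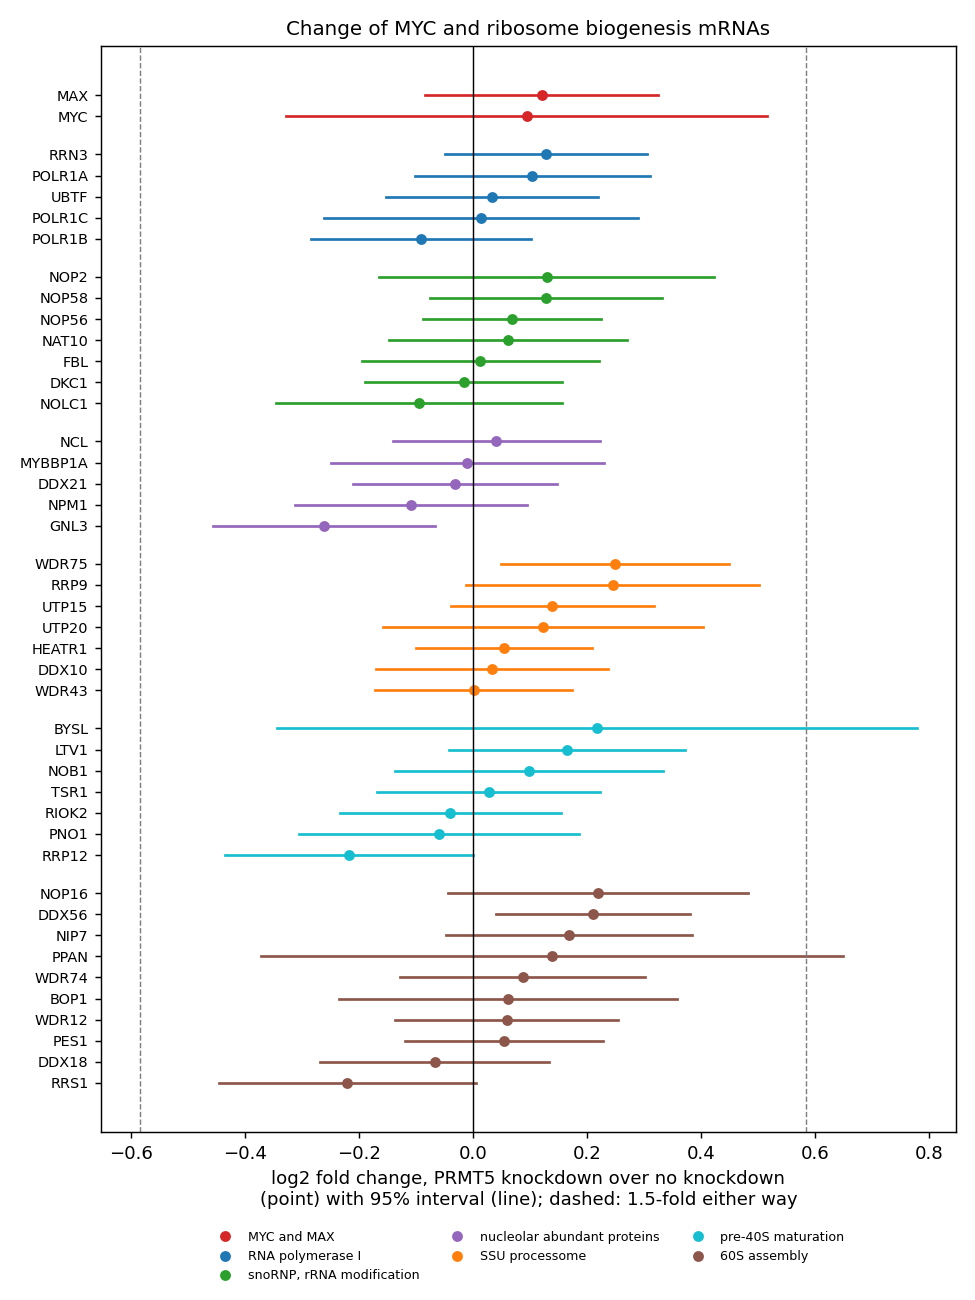
Log2 fold change of each of the 43 mRNAs, PRMT5 knockdown over no knockdown (x axis, no unit), with genes down the page in 7 functional groups; points are edgeR estimates from 3 libraries a group, lines are per-gene 95% intervals and dashed lines mark 1.5-fold. Estimates run from -0.26 to 0.25, and 41 of 43 intervals stay between the dashed lines, all but those of BYSL and PPAN.

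With the replicate number as a block, edgeR called 1061 of all genes (8.31%, with 5.10% lower), and among the 43 only GNL3, lower. With replicate 2 of both groups left out, a fit chosen after seeing the data, 6 of the 43 passed, 14.0% of them beside 16.8% of all genes (7.64% higher, 9.12% lower). Those 6 were WDR75, NIP7, RRN3 and NOP58, higher, and GNL3 and RRP12, lower. The no-knockdown libraries left in that fit, replicates 1 and 3, differed in counts by little more than counting noise. Adding the block to that fit called POLR1A, higher, as well, where 18.7% of all genes were called (8.79% higher, 9.94% lower). The count of 189 genes was 24, 445 and 30 without knockdown replicates 1, 2 and 3. Without no-knockdown replicates 1, 2 and 3 it was 52, 269 and 29. In each of the 6 fits that leave out 1 library, no gene of the 43 passed, where 24 to 445 of all 12768 genes did.

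MYC itself, on chromosome 8 (127735434 to 127741434, plus strand, GRCh38, GENCODE 29), stood at 101.05, 72.7 and 96.1 CPM after knockdown, against 100.3, 62.1 and 90.7 CPM without it. The groups overlapped almost fully, and replicate 2 was the lowest in both. Its fold change was 1.07 (95% interval 0.797 to 1.43; log2 fold change 0.09, SE 0.18, adjusted p = 0.86). In 3 of 3 same-numbered pairs the knockdown value was the higher, and with the replicate block the log2 fold change was 0.10 (SE 0.071, adjusted p = 0.42). Leaving out no-knockdown replicate 2 turned the direction, to a log2 fold change of -0.09, and leaving out any other 1 library gave values from 0.02 (without knockdown replicate 1) to 0.24 (without no-knockdown replicate 1). For MYC the exact permutation p, two-sided, was 0.6. MAX, the obligate dimer partner (chromosome 14, 65006174 to 65102695, minus strand), had 62.7, 62.0 and 63.2 CPM after knockdown and 62.98, 50.6 and 59.3 CPM without it. The knockdown values of MAX lay close together, at the upper end of the others (log2 fold change 0.12, SE 0.092, adjusted p = 0.61).

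**Figure D2:**
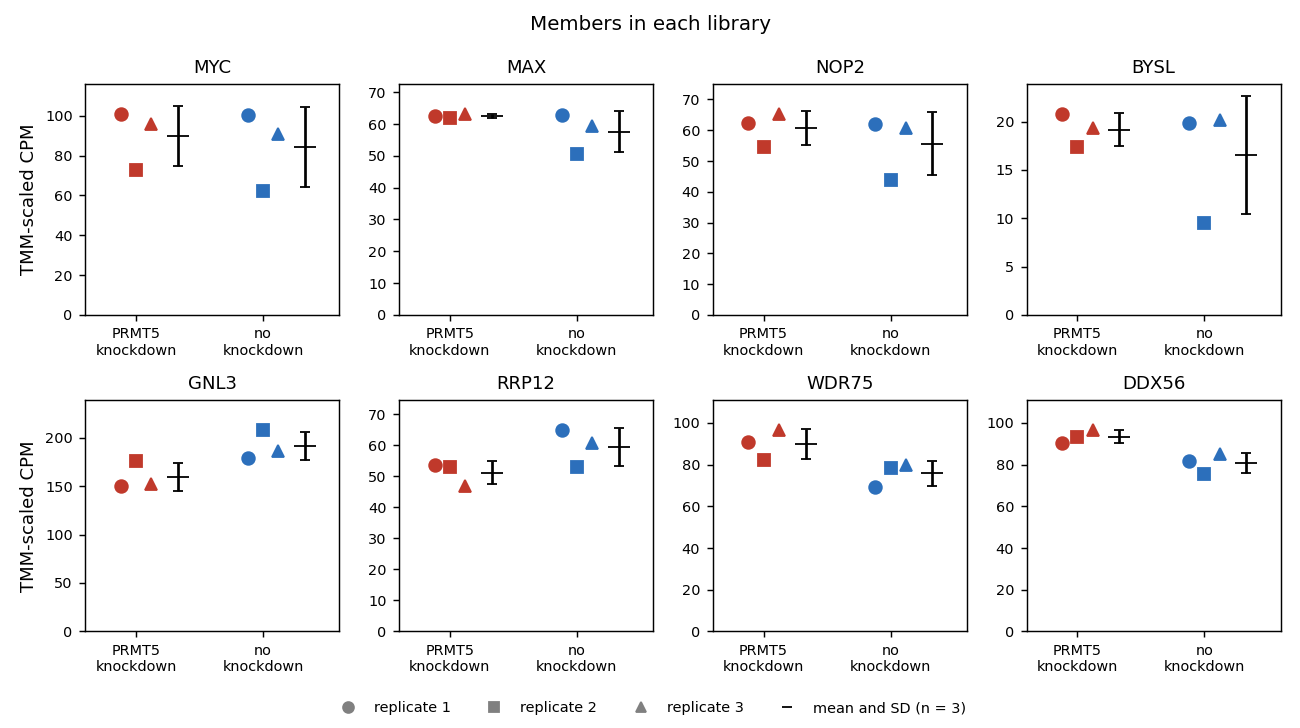
TMM-scaled CPM (y axis, from 0) of 8 of the mRNAs in each library, knockdown in red and no knockdown in blue, with marker shape for the replicate and bars for mean and SD of 3 libraries. MYC, NOP2 and BYSL are lowest in replicate 2 of both groups, while GNL3 is lower and WDR75 and DDX56 are higher in all 3 knockdown libraries.

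Transcription by RNA polymerase I is served by 5 of the genes: the largest subunits POLR1A and POLR1B, the subunit POLR1C that is shared with RNA polymerase III, the initiation factor RRN3 (TIF-IA), which recruits the polymerase to the promoter, and UBTF, which binds along the ribosomal DNA. None passed, and their log2 fold changes lay between -0.09 (POLR1B) and 0.13 (RRN3). RRN3 read 105.7, 92.9 and 105.96 CPM after knockdown and 88.8, 95.95 and 94.1 CPM without it. The value of knockdown replicate 2 fell inside the range without knockdown, and the other 2 knockdown libraries lay above it (adjusted p = 0.52). POLR1A had 73.8, 60.7 and 72.2 CPM after knockdown, against 67.01, 64.5 and 60.7 CPM (log2 fold change 0.10, adjusted p = 0.67). The 95% intervals of the 5 fold changes lay between 0.821 (POLR1B) and 1.24 (POLR1A).

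Of the 7 genes for snoRNPs and rRNA modification, 5 lay above 0 and 2 below, and none passed. They comprise the box C/D core proteins fibrillarin (FBL, the 2′-O-methyltransferase), NOP56 and NOP58, dyskerin (DKC1, the pseudouridine synthase of H/ACA particles), the snoRNP chaperone NOLC1, the RNA acetyltransferase NAT10 and the 28S cytosine methyltransferase NOP2. NOP58 had 62.2, 60.5 and 62.3 CPM after knockdown and 50.5, 62.8 and 56.2 CPM without it, so that no-knockdown replicate 2 exceeded all knockdown libraries (log2 fold change 0.13, adjusted p = 0.58). Its partner NOP56 had 123, 119 and 121 CPM after knockdown and 115, 121 and 109.5 CPM without it (log2 fold change 0.07, adjusted p = 0.71). FBL had a fold change of 1.01 with a 95% interval of 0.874 to 1.16, and DKC1 one of 0.989 (0.877 to 1.11). The widest interval in the group was that of NOP2, from 0.892 to 1.34.

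GNL3 showed the lowest log2 fold change of the 43 genes. It encodes nucleostemin, a nucleolar GTP-binding protein that is abundant in stem and tumour cells and takes part in pre-rRNA processing (chromosome 3, 52681156 to 52694492, plus strand). Counts came to 149.7, 176 and 153 CPM after knockdown, against 179, 208 and 187 CPM without it. The groups did not overlap, although the highest knockdown value lay close to the lowest of the others. The log2 fold change was -0.26 (SE 0.088), a fold of 0.834 with a 95% interval of 0.729 to 0.954. The edgeR adjusted p was 0.21, and 0.012 with the replicate block, and it ran from 6.46e-04 to 0.68 over the 14 fits made, all of which gave a log2 fold change below 0.

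The other 4 nucleolar genes did not pass with or without the block. NPM1, the histone chaperone nucleophosmin, had 145.7, 157 and 147 CPM after knockdown and 154.6, 184 and 146 CPM without it (log2 fold change -0.11, adjusted p = 0.65). Nucleolin (NCL), which binds nascent pre-rRNA, had a fold change of 1.03 (95% interval 0.907 to 1.17), the helicase DDX21 one of 0.978 (0.864 to 1.11) and MYBBP1A, a nucleolar MYB-binding protein, one of 0.993 (0.841 to 1.17). The annotation lists 45 pseudogenes named after NPM1, so its reads could be split or lost among them, and this part in its value was not tested.

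All 7 genes of the small-subunit processome, the particle that cuts the precursor toward 18S rRNA, lay above 0, from 0.0006 (WDR43) to 0.25 (WDR75), and none passed. Of 40 further genes of the small subunit 21 lay above 0, with a median of 0.0036, and of all genes 49.6% did. In the second same-numbered pair HEATR1 (-0.03), WDR43 (-0.05) and DDX10 (-0.16) lay below 0 and the other processome genes above it. WDR43 and DDX10 lay below 0 in some of the other fits. WDR75, the human relative of yeast Utp17, which helps the polymerase and the processome work together, had 90.8, 82.3 and 96.5 CPM after knockdown and 69.1, 78.2 and 79.9 CPM without it. Each knockdown library lay above each of the others, with replicate 2 of the knockdown nearest to them (log2 fold change 0.25, SE 0.090, adjusted p = 0.24, and 0.060 with the block). RRP9, a protein specific to the U3 snoRNP, had 35.4, 34.4 and 32.6 CPM after knockdown, against 31.4, 23.9 and 31.2 CPM (log2 fold change 0.24, adjusted p = 0.38). The groups of RRP9 did not overlap either, and no-knockdown replicate 2 was the lowest of the 6. Without that library the log2 fold change of RRP9 was 0.12 (adjusted p = 0.56). UTP15, a scaffold of the same subcomplex as WDR75, was the third processome gene whose groups did not overlap, with 54.9, 54.5 and 58.7 CPM after knockdown and 48.7, 53.6 and 50.6 CPM without it (adjusted p = 0.48).

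Late maturation of the 40S subunit is represented by the nuclease NOB1, which makes the final 18S cut, its partner PNO1, the kinase RIOK2, the GTPase-like TSR1, and LTV1, BYSL and RRP12. None passed, with 4 above 0 and 3 below. RRP12, needed to export pre-ribosomes from the nucleus in yeast, had 53.6, 53.1 and 46.97 CPM after knockdown and 64.8, 52.9 and 60.6 CPM without it. No-knockdown replicate 2 fell among the knockdown values (log2 fold change -0.22, SE 0.098, adjusted p = 0.35). LTV1, an assembly factor that leaves the particle when it is phosphorylated, had 41.3, 34.8 and 40.03 CPM after knockdown, against 35.4, 33.998 and 34.3 CPM (log2 fold change 0.16, adjusted p = 0.47). BYSL (bystin), singled out after its values were seen, had 20.8, 17.3 and 19.3 CPM after knockdown, against 19.9, 9.52 and 20.2 CPM. Its no-knockdown replicate 2 was far below the other 5 libraries, and the 95% interval of its fold change was the widest of the 43, from 0.787 to 1.72. Leaving that library out turned its log2 fold change to -0.06, against 0.22 with it.

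Among the 10 genes of 60S assembly 8 lay above 0 and 2 below, and none passed. Of 44 further 60S genes 19 lay above 0. DDX56, a nucleolar helicase, had 90.2, 93.4 and 96.5 CPM after knockdown, against 81.8, 75.5 and 85.1 CPM. Its groups did not overlap (log2 fold change 0.21, SE 0.077, adjusted p = 0.25, and 0.080 with the block). RRS1, which helps bring the 5S ribonucleoprotein into the 60S particle, had 19.9, 18.6 and 18.8 CPM after knockdown and 22.6, 23.5 and 20.6 CPM without it. All knockdown values of RRS1 lay below the others (log2 fold change -0.22, SE 0.10, adjusted p = 0.37). PES1, BOP1 and WDR12, which form the PeBoW complex for 28S processing, had fold changes of 1.04, 1.04 and 1.04. NIP7, which acts in late pre-60S processing and was singled out after its values were seen, had 56.2, 53.996 and 56.7 CPM after knockdown and 46.02, 56.5 and 45.9 CPM without it. Replicate 2 without knockdown lay among the knockdown values (log2 fold change 0.17, adjusted p = 0.48, and 0.0078 without replicate 2 of both groups). The others (NOP16, PPAN, WDR74 and DDX18) lay between log2 fold changes of -0.07 and 0.22. In all, groups did not overlap for 6 of the 43 genes, 4 higher (WDR75, RRP9, UTP15, DDX56) and 2 lower (GNL3, RRS1), a share of 14.0% beside 19.8% of all genes (8.22% higher, 11.6% lower).

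Levels per kilobase of transcript, from the length the authors' table gives, set the genes in order. Without knockdown NPM1 (90.9 ± 11.3 CPM per kilobase, SD, n = 3), GNL3 (89.4 ± 6.86) and NCL (86.8 ± 8.16) led, and their ranges overlapped. After knockdown the levels of these 3 were 84.3 ± 3.47, 74.6 ± 6.82 and 89.3 ± 2.89 CPM per kilobase. DDX21 and NOP56 followed, each with a range of values apart from those of its neighbours in the order. MYC stood seventh, at 38.03 ± 6.39 CPM per kilobase after knockdown and 35.7 ± 8.41 without it, above 83.9% of all genes. From NOLC1 down to BOP1, neighbours overlapped except DKC1 and NAT10. PPAN was lowest, at 1.89 ± 0.33 CPM per kilobase after knockdown and 1.71 ± 0.26 without it, and rested on 21 to 57 reads a library. Other annotated genes overlapped more than 10% of the exon bases of 11 of the 43 genes. In GENCODE 29 the readthrough gene PPAN-P2RY11 covers 56.0% of PPAN exon bases on the same strand, and another gene on the same strand covers 54.4% of NOP2. LTV1, HEATR1, TSR1, NOB1 and NIP7 were overlapped over 20.2% to 27.7% of their exon bases, mostly by genes on the opposite strand. Reads in such stretches can be counted to neither gene, so these levels are uncertain. The median level of the 43 was 20.6 CPM per kilobase after knockdown and 18.98 without it, against 11.03 and 11.1 over all genes.

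**Figure D3:**
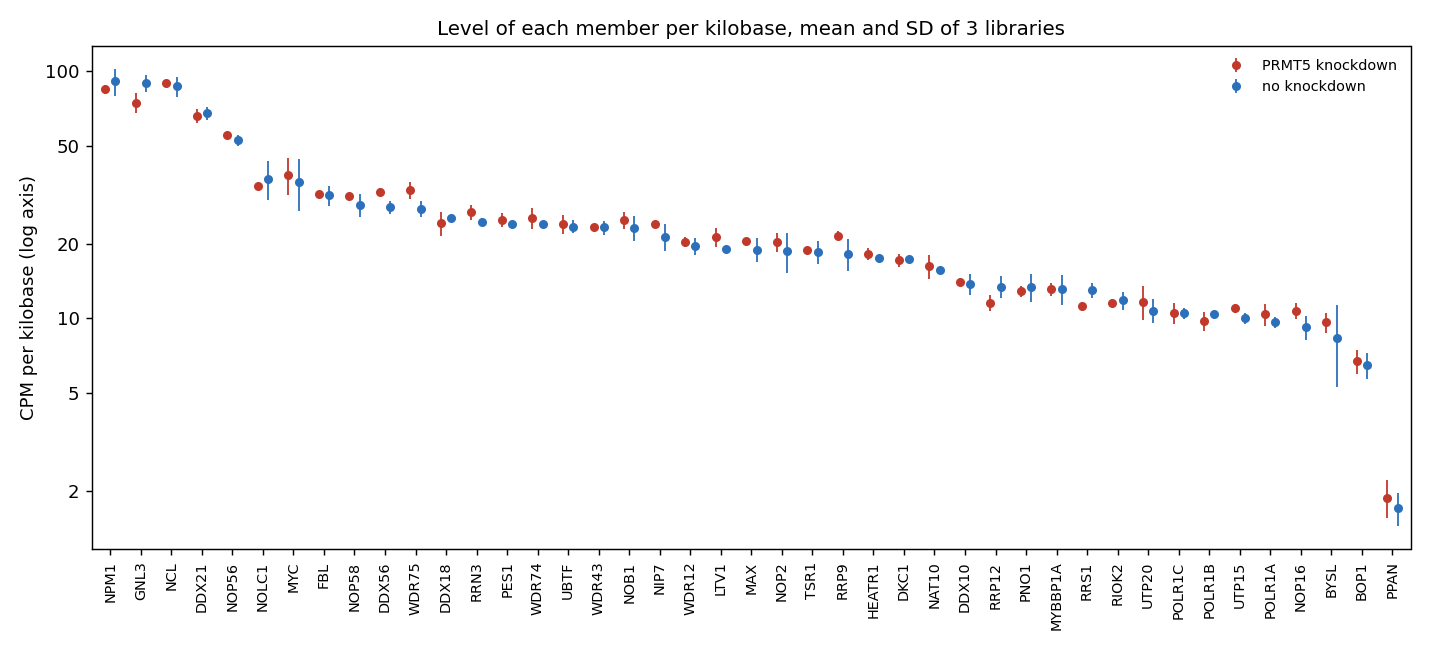
Level of each of the 43 mRNAs in CPM per kilobase (y axis, log scale), knockdown in red to the left of no knockdown in blue, as mean and SD of 3 libraries, ordered by the level without knockdown. NPM1, GNL3 and NCL lead at 86.8 to 90.9 CPM per kilobase without knockdown, and PPAN is lowest at 1.71.

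For 34 of the 43 genes replicate 2 lay farther from its group, on average over both groups, than the knockdown change was large (8572 of all 12768 genes). In replicate 2 the 43 mRNAs stood a median of 0.14 (knockdown) and 0.15 (no knockdown) on the log2 scale away from the mean of replicates 1 and 3, in either direction, while the median size of the knockdown change was 0.09. Over all genes the same medians were 0.15, 0.18 and 0.12. A departure of a single library is noisier than a difference of means, so these sizes are given side by side only. MYC was lower in replicate 2 by 0.44 on the log2 scale after knockdown and by 0.62 without it. NOP2 shared that pattern (0.23 and 0.49 lower), as did UTP20, a large scaffold of pre-rRNA processing (0.42 and 0.29 lower). GNL3 and UBTF went the other way and were higher in replicate 2 of both groups. In all, replicate 2 was lower in both groups for 14 genes, higher in both for 7 and of opposite sign for 22, a same-sign share of 48.8% where all genes gave 63.3%. What set replicate 2 apart is not given in the labels, and its part in the results was not tested. Counts of no-knockdown replicates 1 and 3 differed by little more than counting noise (chi-square per degree of freedom 1.73, where 1 is counting noise alone). The other pairs of libraries within a group gave 7.01 to 20.4. Fits without replicate 2 of both groups have only those 2 libraries as their comparison, so the spread between cultures may be understated there.

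**Figure D4:**
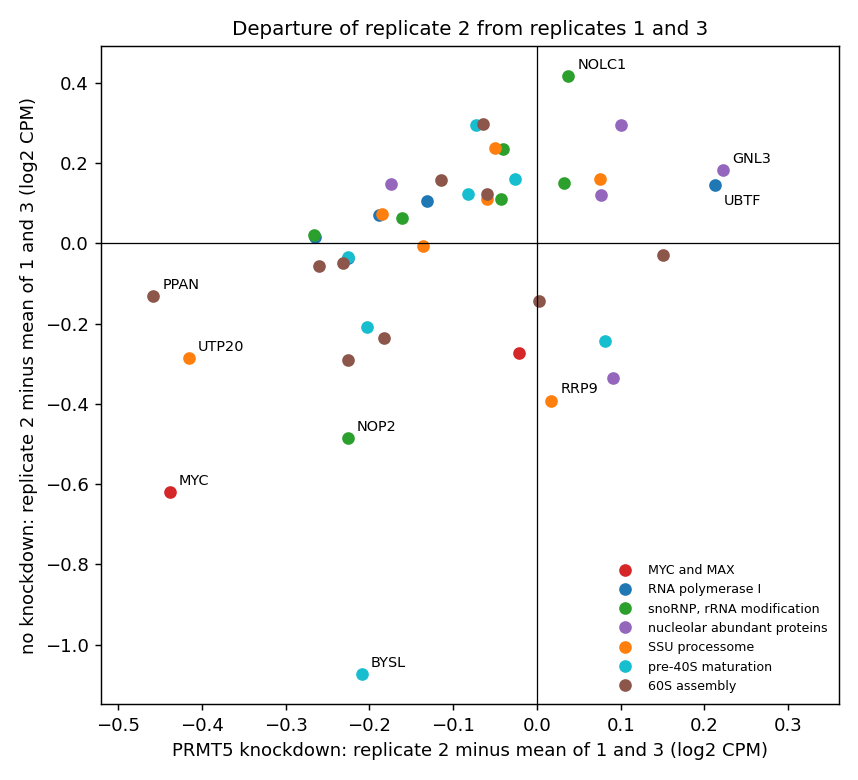
Departure of replicate 2 from the mean of replicates 1 and 3 in log2 CPM, for the knockdown group (x axis) and the group without knockdown (y axis); each point is 1 of the 43 mRNAs, coloured by function. MYC lies at -0.44 and -0.62, BYSL lies lowest on the y axis at -1.07, and 14 genes fall below 0 on both axes.

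Promoters of these genes often held the E-box CACGTG, the core sequence that MYC and MAX bind and that reads the same on both strands. RefSeq promoter windows (250 bases before to 50 after each annotated start, GRCh38.p14) were found for 36 of the 43 genes. MYC, NOP58, NOLC1, RRP12, BOP1, RRS1 and DDX18 had none. The E-box was present for 13 of the 36 (36.1%), against 12.7% of 9454 genes of the table with a window and 7.26% of all 35116 windows, some genes having 2. Each site follows with up to 12 bases on either side, 5′ to 3′ on the strand of the gene, with the E-box in capitals. All 13 begin between 31 bases before and 35 bases after the RefSeq start of their window. Whether E-boxes of other genes in the table lie as close to the start was not tested. The distances hold for the RefSeq starts only. In GENCODE the genes PES1 and GNL3, for example, begin much farther from the site, while NAT10 and WDR43 begin close to it.
FBL, chr19:39846356-39846385, minus strand: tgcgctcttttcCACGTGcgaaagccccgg
NAT10, chr11:34105602-34105631, plus strand: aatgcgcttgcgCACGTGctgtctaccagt
NOP2, chr12:6568242-6568268, minus strand: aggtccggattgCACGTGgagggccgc
GNL3, chr3:52686026-52686055, plus strand: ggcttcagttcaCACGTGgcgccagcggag
MYBBP1A, chr17:4555340-4555369, minus strand: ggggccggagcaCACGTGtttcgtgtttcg
DDX21, chr10:68956604-68956633, plus strand: ggccgggtgtccCACGTGgtccccggcgac
UTP20, chr12:101280083-101280112, plus strand: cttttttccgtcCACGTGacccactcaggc
WDR43, chr2:28894658-28894687, plus strand: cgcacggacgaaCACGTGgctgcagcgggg
RRP9, chr3:51941892-51941921, minus strand: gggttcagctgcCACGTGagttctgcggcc
PNO1, chr2:68157885-68157914, plus strand: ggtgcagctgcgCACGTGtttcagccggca
LTV1, chr6:143843354-143843383, plus strand: gtcctggggctgCACGTGtggtgaggccta
BYSL, chr6:41921515-41921544, plus strand: ttcttcagtcccCACGTGcgatccttcccg
PES1, chr22:30591880-30591909, minus strand: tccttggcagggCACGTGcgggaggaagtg

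Medians of the knockdown change were close with and without the motif. For the 13 genes with an E-box the median log2 fold change was 0.05 and 9 lay above 0, while for the 23 without it these were 0.07 and 19. Over the table the medians were 0.0040 for genes with an E-box and 0.0006 for those without. A match describes the letters of the window and is not a measured binding site. GNL3, the gene with the lowest fold change, has 2 annotated starts, and the window of the one with the motif is given in full with its E-box in capitals near the 3′ end.
GNL3, chr3:52685782-52686081, plus strand: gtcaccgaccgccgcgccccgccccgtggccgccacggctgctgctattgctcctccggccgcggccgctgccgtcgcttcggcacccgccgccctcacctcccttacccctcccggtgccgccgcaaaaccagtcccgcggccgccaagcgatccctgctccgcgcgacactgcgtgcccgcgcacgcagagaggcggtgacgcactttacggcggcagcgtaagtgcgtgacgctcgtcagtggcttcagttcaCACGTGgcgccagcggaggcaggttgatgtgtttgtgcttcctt

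Several of the genes also host small nucleolar RNAs, the guides of rRNA modification. In GENCODE 29, 9 of the 43 (20.9%) hold at least 1 annotated small nucleolar RNA within the gene body on the same strand, against 2.75% of 12011 matched genes of the table. These are GNL3 with 6, NOP56 with 5, NOP58 with 4, NCL and WDR43 with 3 each, DKC1, TSR1 and PPAN with 2 each, and POLR1C with 1. Their median log2 fold change was 0.03 with 7 of 9 above 0, and that of the other genes was 0.06. The small RNAs themselves were not analysed here.

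The wider pathway was described with 8 further lists. Other ribosome biogenesis genes, 131 in 5 lists, held no gene that passed without the block, and 60 of the 131 lay above 0 (median log2 fold change -0.02). An unadjusted p under 0.05 was reached by 15 of them, 5 up and 10 down, where 14.0% of all genes reached it. Under the block 2 of the 131 were called up (NVL, DDX24) and 3 down (IMP3, IMP4, GLTSCR2), where 8.31% of all genes were called. In the list of the small subunit (40 genes) the smallest p belonged to IMP3 and IMP4, which bind the U3 snoRNA side by side as part of the MPP10 complex. IMP3 had 66.8, 75.5 and 70.5 CPM after knockdown, against 88.1, 91.1 and 92.97 CPM. Its groups lay well apart (log2 fold change -0.35, SE 0.077, adjusted p = 0.056, and 0.0052 with the block). IMP4 had 28.02, 27.98 and 27.95 CPM after knockdown and 38.96, 32.5 and 36.9 CPM without it (log2 fold change -0.37, adjusted p = 0.0998, and 0.022 with the block). The authors' deposited table gives false discovery rates of 0.0084 for IMP3 and 0.032 for IMP4.

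In the list of 60S factors (44 genes) NVL, an ATPase that remodels pre-60S particles, had 104.8, 111 and 110.1 CPM after knockdown, against 86.7, 93.3 and 84.3 CPM (log2 fold change 0.30, adjusted p = 0.083, and 0.011 with the block). The authors' deposited table lists NVL at a false discovery rate of 0.029. The helicase gene DDX24 averaged 416 ± 11.8 CPM after knockdown and 355 ± 8.44 CPM without it (SD, n = 3 each). Its adjusted p was 0.16, and 0.033 with the block. For GLTSCR2, the symbol in the table for NOP53, the means were 35.1 ± 8.41 CPM after knockdown and 44.3 ± 9.63 CPM without it. Its groups overlapped, but each knockdown value lay below its same-numbered partner (log2 fold change -0.34, adjusted p = 0.48, and 0.018 with the block).

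None of the remaining biogenesis lists held a call with or without the block, where 8.31% and 1.48% of all genes were called. Of all genes 49.6% lay above 0. Among 16 further genes of RNA polymerase I, 10 lay above 0, and the smallest p belonged to POLR1D (log2 fold change 0.21, adjusted p = 0.32) and POLR2L (0.13, adjusted p = 0.45), both small shared subunits. Among 14 further snoRNP genes 10 lay below 0, and the smallest p belonged to NHP2L1, the table's symbol for the 15.5K protein SNU13 (-0.18, adjusted p = 0.32), and the assembly factor NUFIP1 (-0.29, adjusted p = 0.41). Of 17 exosome and rRNA trimming genes 11 lay below 0, with the smallest p for MPHOSPH6 (-0.25, adjusted p = 0.29) and EXOSC8 (-0.30, adjusted p = 0.29).

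Around MYC, 16 measured genes of its network held no call with or without the block, where 8.31% and 1.48% of all genes were called. The median log2 fold change of these 16 was 0.03. MLXIPL, a glucose-responsive relative of MYC, averaged 1.43 ± 0.31 CPM after knockdown and 2.29 ± 0.34 CPM without it (log2 fold change -0.70, adjusted p = 0.30), and for the MAX-binding repressor MXD4 the log2 fold change was 0.15 (adjusted p = 0.42). Of 39 genes listed here as MYC targets outside ribosome biogenesis, 23 lay above 0 (median log2 fold change 0.03). Of these 39, 1 was called higher and none lower, where 1.48% of all genes were called. That gene was NDUFAF4, an assembly factor of respiratory complex I, at 287, 260.5 and 289.7 CPM after knockdown, against 205, 224 and 211 CPM. The libraries did not overlap (log2 fold change 0.39, SE 0.073, adjusted p = 0.031). The adjusted p of NDUFAF4 was 0.19 and 0.18 without knockdown replicates 1 and 3, 0.15 and 0.19 without no-knockdown replicates 1 and 3, and 0.0018 with the block. A pseudogene copy, NDUFAF4P1, is counted separately in the table. Adding the block called 3 further genes of this list, all lower, where 8.31% of all genes were called. Those were the transferrin receptor gene TFRC (-0.31, adjusted p = 0.11, and 0.0078 with the block), the hexokinase gene HK2 (-0.45, adjusted p = 0.11, and 0.026) and the nucleoside transporter gene SLC29A2 (-0.47, adjusted p = 0.18, and 0.038). The authors' deposited table gives false discovery rates of 0.0023 for NDUFAF4, 0.027 for HK2, 0.070 for TFRC and 0.094 for SLC29A2.

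The last list holds 7 genes through which unused ribosomal proteins act on p53, when the 5S ribonucleoprotein of RPL5 and RPL11 binds MDM2. None passed without the block, where 1.48% of all genes did, and 3 of the 7 lay above 0 (median -0.0034). CDKN1A, the p53 target that encodes p21, had 284, 225 and 270.5 CPM after knockdown and 240.4, 179 and 235 CPM without it. The groups overlapped, and replicate 2 was lowest in both (log2 fold change 0.25, adjusted p = 0.41, and 0.013 with the block). CDKN2A, whose locus also encodes the nucleolar protein ARF, averaged 8.32 ± 1.35 CPM after knockdown and 10.3 ± 0.80 CPM without it (adjusted p = 0.40).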

How the data were processed

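RNA from 6 LNCaP libraries was extracted with Trizol and made into NEBNext Ultra II libraries, per the labels' protocols. The submitters' processing notes name STAR 2.5, Subread 1.6.5 (featureCounts), edgeR 3.20.8 and build hg38. The authors deposited raw read counts per gene, log2 CPM and, for their own comparison, log2 fold changes, p-values and false discovery rates, per the file headers. The annotation, strand setting and any low-count filter are not given here by any source, and the table's coordinates, of another build than the noted one, were not used. With the strand setting unknown, reads from a gene and an antisense neighbour cannot be told apart.

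The main test was the quasi-likelihood test of edgeR 4.0.16 (R 4.3.3) on those counts, with TMM scaling, a robust fit, no covariate and Benjamini-Hochberg adjustment over 12768 genes at 0.05. A filter at a minimum count of 10 (filterByExpr) removed 0 genes. Standard errors and 95% intervals come from that fit. Alternatives were a replicate block, DESeq2 1.42.0, DESeq2 size factors, other filters and leaving out libraries. The code was tested on simulated data. Of 100 genes simulated with a 1.5-fold change the main test recovered 71%, and of 100 with a 2-fold change 95%. It also called 18 unchanged genes. Deviations from group means correlated by 0.34, 0.45 and 0.17 between same-numbered libraries, each above the 0.1 set for pairs, although numbers 1 and 3 also correlated with each other across groups (0.20 and 0.23). P-values measure the spread between these cultures only. Members and lists were chosen with earlier results of these data known. Per-library values are given for MYC, MAX, members called with all 6 libraries and the 2 of smallest p in each group, and others were chosen after their values were seen. Older symbols were matched for 12 of the 193 list genes found, and MYCN and EIF4A1 were not analysed here.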

Additional observations from a re-analysis of the deposited data

How the results depend on the processing

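The number of called genes depended on the treatment of replicates more than on scaling or on a cut at 5 CPM in 3 libraries. The main filter removed 0 genes, so leaving it out could change no call. With the cut at 5 CPM 42 genes were higher and 135 lower, and with DESeq2 size factors 47 and 138. All genes called were 410 higher and 651 lower with the replicate block, and DESeq2 called 91 higher and 212 lower. Leaving out 1 library gave 3 to 179 higher and 21 to 266 lower. Without replicate 2 of both groups, a fit added after the data were seen, 976 were higher and 1165 lower, and 1122 and 1269 with the block added. The no-knockdown group was then replicates 1 and 3, which were nearly alike in counts. Among the 43 genes, 0 were called higher and 0 lower without any 1 library, 1 was lower with the replicate block (GNL3), 4 higher and 2 lower without replicate 2 of both groups, and 5 higher and 2 lower with the block added to that fit. Their median log2 fold change stayed between 0.04 and 0.09 when 1 library was left out. Direction was the same in all fits made for 23 of the 43 genes. That count has no share over all genes beside it, and the fits share libraries. The log2 fold change of PRMT5 lay between -3.12 and -3.03 without 1 library. The filter at 5 CPM removed PPAN. With all 6 libraries the block changed no call among the 43 genes other than that of GNL3, and without replicate 2 of both groups it added POLR1A (adjusted p = 0.048, against 0.078 without the block). The causes of these differences were not tested. With 3 libraries a group the median distance from estimate to interval end was 0.21 on the log2 scale, and smaller changes could not be told from 0 for most of these genes.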
